A study of Mus musculus with 8 samples.

Results

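Genes that move ions, water, bicarbonate and short-chain fatty acids across the colonic epithelium were followed in 8 colon tumor samples. The 34 members were taken by gene symbol: carbonic anhydrases, aquaporins, apical and basolateral exchangers, subunits of the epithelial sodium channel, ion pumps with their regulators, the machinery of chloride secretion and carriers for organic solutes, phosphate and magnesium. Of these, 31 had probes on the array, 43 probes among the 25697 in the table of 18138 gene symbols, while no probe there carried the symbols Car1, Slc9a2 or Slc9a3. The tumors came from mice 8 months old with the APCmin/+ genotype, which shortens the Wnt pathway inhibitor Apc, on a mixed C57BL/6J and FVBN background. In the VP16LXRa group (4 samples, replicates 5 to 8) the transgene encoded the liver X receptor alpha joined to the viral activation domain VP16. In the VP16 group (4 samples, replicates 1 to 4) it encoded VP16 alone, so that the Apc mutation and the VP16 domain were common to all samples. The labels do not name the promoter of the transgene, nor do they say whether each tumor came from its own mouse. The tests therefore weigh differences against the spread of these samples, which may be partly technical and need not be the spread between mice. If tumors shared a mouse, the samples of a group were not independent. The p-values could then be too small and the intervals too narrow.

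The colon recovers salt and water from its contents. Surface colonocytes exchange sodium for protons and chloride for bicarbonate at the apical membrane, with carbonic anhydrases supplying protons and bicarbonate from carbon dioxide. In the distal colon sodium also enters through the epithelial sodium channel and is pumped out by the basolateral sodium pump. Crypt cells secrete chloride through Cftr, fed by the basolateral cotransporter Slc12a2 and by potassium channels that keep the membrane voltage. Many of the absorptive genes are switched on as cells leave the crypt and are known to be lower in colon tumors than in normal mucosa.

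Upstream sequences are shown for the 3 members that varied most between the tumors, Car4, Aqp8 and Slc5a8, and for Fxyd4, which varied in the opposite sense. Each is the 250 bases before the gene's start as RefSeq gives it on GRCm38.p6, written 5′ to 3′ on the strand of the gene. The windows lie at chr11:84957504-84957753, plus strand (Car4), chr7:123462044-123462293, plus strand (Aqp8), chr10:88885742-88885991, plus strand (Slc5a8) and chr6:117937336-117937585, minus strand (Fxyd4). Capitals mark matches, on either strand, to any of 6 motifs.
Car4: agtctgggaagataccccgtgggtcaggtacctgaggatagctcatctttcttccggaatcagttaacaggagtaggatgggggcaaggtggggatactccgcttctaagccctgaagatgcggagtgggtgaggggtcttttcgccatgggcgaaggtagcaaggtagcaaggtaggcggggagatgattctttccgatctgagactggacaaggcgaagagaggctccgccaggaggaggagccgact
Aqp8: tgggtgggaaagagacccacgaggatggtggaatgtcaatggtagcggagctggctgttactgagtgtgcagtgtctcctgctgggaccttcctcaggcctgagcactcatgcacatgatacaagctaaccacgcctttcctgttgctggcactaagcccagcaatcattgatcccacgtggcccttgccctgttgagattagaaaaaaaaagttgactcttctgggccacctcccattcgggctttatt
Slc5a8: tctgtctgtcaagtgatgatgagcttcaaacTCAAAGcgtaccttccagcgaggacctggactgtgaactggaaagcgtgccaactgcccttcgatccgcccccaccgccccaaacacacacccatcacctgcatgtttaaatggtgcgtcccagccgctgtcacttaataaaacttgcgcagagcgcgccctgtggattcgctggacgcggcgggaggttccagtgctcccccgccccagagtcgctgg
Fxyd4: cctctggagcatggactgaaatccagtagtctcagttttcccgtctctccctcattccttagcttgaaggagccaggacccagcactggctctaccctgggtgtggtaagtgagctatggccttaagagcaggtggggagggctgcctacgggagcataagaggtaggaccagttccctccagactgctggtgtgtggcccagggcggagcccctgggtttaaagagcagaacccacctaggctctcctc
The motifs searched were the TATA box TATAAA, the CDX motif TTTATNG, the HNF4 motif CAAAGTCCA, the TCF/LEF motif CTTTGA, the LXR motif (a direct repeat of AGGTCA with 4 bases between) and the steroid receptor motif (AGAACA and TGTTCT with 3 bases between). A TCF/LEF match can overlap an HNF4 match. Among these 4 windows the only match was a TCF/LEF motif in Slc5a8, starting 219 bases before the start. Over the 28 windows of the 24 members in the promoter table, the TCF/LEF letters occurred in 3 (Fxyd3, Slc26a3 and Slc5a8), against 13.8% of all 32851 windows of this length. The TATA box occurred in 2 of the 28 (Aqp3 and Slc26a3), against 12.4% of all. The CDX, HNF4, LXR and steroid receptor letters occurred in none of the 28, against 9.81%, 0.384%, 0.0152% and 0.00913% of all windows. Absence of a match says only that these letters are not in these windows.

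All values below are log2 intensities after background correction and quantile normalization, and a difference is VP16LXRa minus VP16. A probe was called detected on an array at a detection p-value under 0.01, and a probe detected on at least 4 arrays was kept and tested. Arrays had 11469 to 12257 detected probes, and with 4 arrays a group the differences are imprecise. Of the 31 members on the array, 25 were kept, each given at its brightest kept probe, and 17 of these were detected on all 8 arrays. Slc4a4, Aqp3, Slc16a1 and Slc6a14 were detected on no array, Kcnq1 on 1 and Scnn1g on 2, so these 6 members were not tested. Total RNA of a tumor cannot tell fewer cells of a type from less RNA per cell.

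The 2 samples VP16LXRa replicate 5 and VP16 replicate 1 stood apart from the other 6, and differences between groups are therefore given with all arrays and without these 2. Axin2, a feedback target of Wnt signalling, read 11.54 in VP16LXRa replicate 5 and 8.73 to 9.05 in the other VP16LXRa samples, and 11.35 in VP16 replicate 1 and 8.51 to 9.15 in the other VP16 samples. The median deviation of the 25 members from their own means was -1.53 in VP16LXRa replicate 5 and 0.26 to 0.51 in the other VP16LXRa samples. It was -0.69 in VP16 replicate 1 and 0.22 to 0.47 in the other VP16 samples. The median over all kept probes stayed between -0.01 and 0.04 on every array. Quantile normalization holds that median near 0, so it does not show that the arrays were otherwise alike. In VP16LXRa replicate 5, 18 of 25 members had the lowest value of their group, against 36.4% of all kept probes. In VP16 replicate 1 this held for 20 of 25, against 33.2% of all. The same 18 members were lowest in both samples, against 23.3% of all kept probes.

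**Figure D1:**
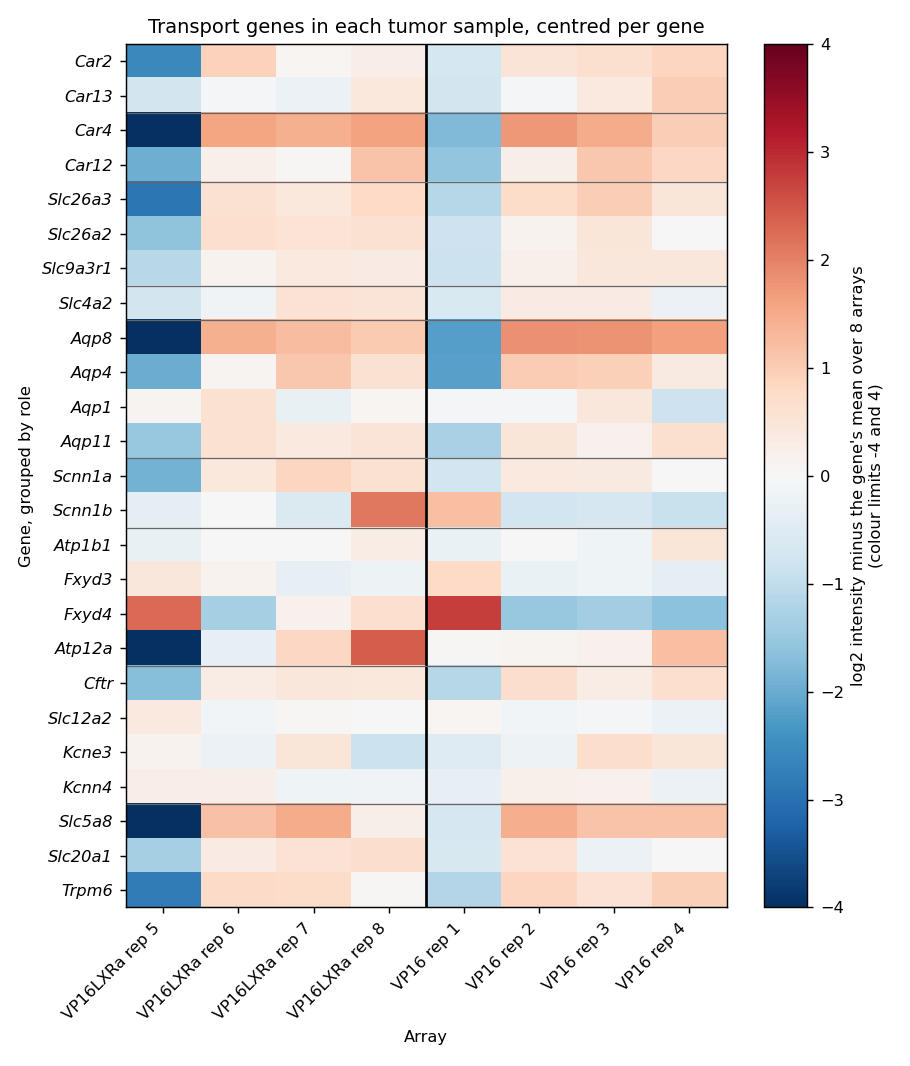
Each row is 1 of the 25 kept members and each column an array, with VP16LXRa replicates 5 to 8 left of the line and VP16 replicates 1 to 4 right of it. Colour gives the log2 intensity minus the gene's mean over 8 arrays, and lines separate roles. Blue fills most of the columns of VP16LXRa replicate 5 and VP16 replicate 1, in which 18 members were the lowest of both groups, while Fxyd4 and Fxyd3 are red there.

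Over the members as a whole no gene differed between the groups beyond the spread of the samples. With limma, 0 of 25 passed an adjusted p of 0.05, against 0.00842% of all 11875 kept probes (1 probe), and each of the 25 had an adjusted p of at least 0.9999. At an unadjusted p under 0.05 the count was also 0 of 25, against 1.68% of all probes. No member had groups that did not overlap, against 1.28% of all probes. Differences were positive for 11 members (44%) and negative for 14, against 50.4% positive over all probes. Their median was -0.08, against a median of 0 over all probes. The median SD over 8 arrays was 0.91 for the members and 0.35 for all kept probes, and 19 of 25 (76%) lay above the upper quartile of all probes, an SD of 0.52. With a median standard error of 0.59 for the members, against 0.24 for all probes, the intervals below are wide, and they do not show that the groups were alike.

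**Figure D2:**
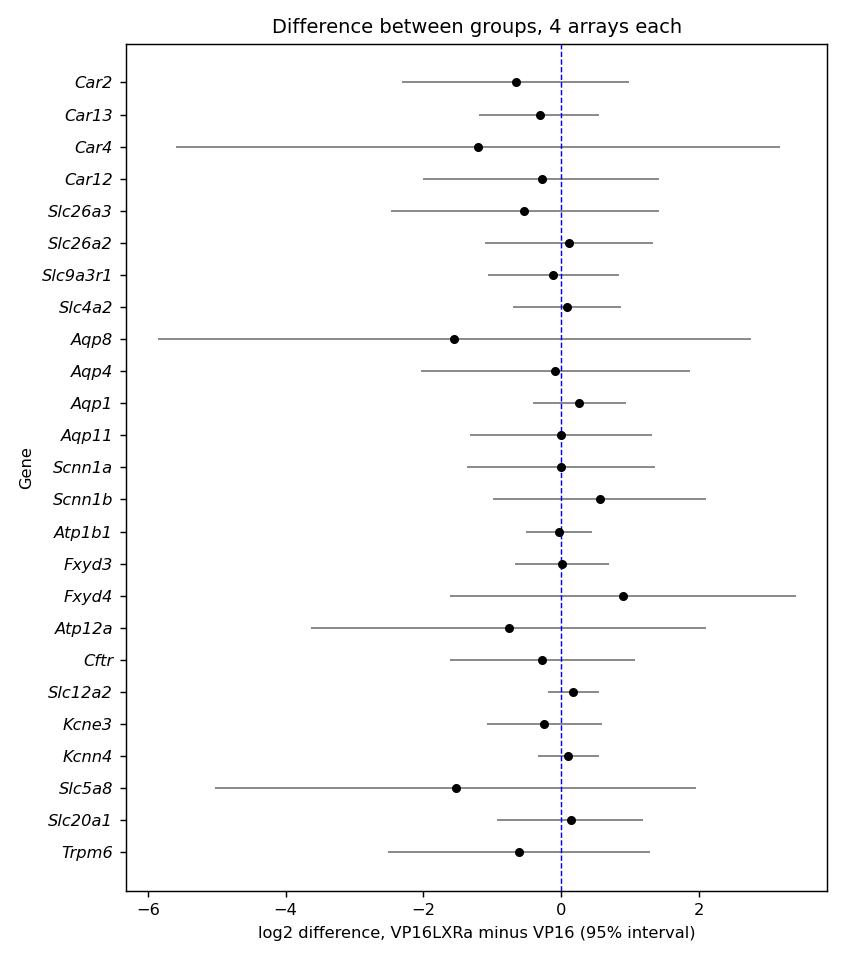
Points give the log2 difference, VP16LXRa minus VP16, of each kept member, and bars its 95% interval from limma over 4 arrays in each group. Every interval includes 0. The widest belong to Aqp8 (-5.86 to 2.76) and Car4 (-5.59 to 3.18), the narrowest to Slc12a2 (-0.19 to 0.55).

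Carbonic anhydrases interconvert carbon dioxide and bicarbonate. Car4, anchored at the apical surface of colonocytes, read 4.68, 13.29, 13.12 and 13.3 in VP16LXRa replicates 5 to 8, against 9.94, 13.43, 13.17 and 12.67 in VP16 replicates 1 to 4. It was among the most intense members in 6 samples, intermediate in VP16 replicate 1 and not detected in VP16LXRa replicate 5, and the groups overlapped. Its difference was -1.2 (SE 1.92, 95% interval -5.59 to 3.18), and 0.15 without the 2 samples that stood apart. For a probe not detected on an array, the lowest signal of any detected probe there (5.34 in VP16LXRa replicate 5) was taken as the upper limit. On that basis Car4 was at least 238-fold lower in VP16LXRa replicate 5 than the mean of the other 3 VP16LXRa samples. In VP16 replicate 1 it was 8.87-fold lower than the mean of the other 3 VP16 samples.

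The membrane enzyme Car12 read 5.09, 7.22, 7.08 and 8.17 in VP16LXRa replicates 5 to 8, against 5.46, 7.25, 8.11 and 7.87 in VP16 replicates 1 to 4. Again the lowest sample of each group was the one that stood apart, and in VP16LXRa replicate 5 the probe was not detected. The difference was -0.28 (SE 0.75) and -0.25 without the 2 samples. Car2, the abundant cytosolic enzyme, read 7.79, 11.3, 10.46 and 10.65 in VP16LXRa tumors, against 9.68, 10.9, 11.02 and 11.23 in VP16 tumors. VP16LXRa replicate 5 lay 8.08-fold below its group's other 3 samples and VP16 replicate 1 lay 2.58-fold below its own. Car2 differed by -0.66 between the groups (SE 0.72, 95% interval -2.31 to 0.99) and by -0.25 without the 2 samples, and its dimmer probe by -0.21 (SE 0.46), or 0.02 without them. Car13, another cytosolic enzyme, varied less, with 8.21 to 9.36 in VP16LXRa tumors and 8.21 to 9.92 in VP16 tumors and a difference of -0.31 (SE 0.38), or -0.41 without the 2 samples.

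Among the apical exchangers, Slc26a3, which takes up chloride in exchange for bicarbonate, read 4.35, 7.86, 7.67 and 8.05 in VP16LXRa replicates 5 to 8, against 6.1, 7.98, 8.22 and 7.73 in VP16 replicates 1 to 4. Its probe was not detected in VP16LXRa replicate 5, which lay at least 5.74-fold below the other 3 VP16LXRa samples, and VP16 replicate 1 lay 3.67-fold below the other 3 VP16 samples. The difference was -0.53 (SE 0.85, 95% interval -2.47 to 1.42), and -0.12 without these samples. The sulfate carrier Slc26a2 was dim, 4.52 to 6.81 in VP16LXRa tumors and 5.29 to 6.6 in VP16 tumors, and not detected in either sample that stood apart. Slc9a3r1, a scaffold protein that holds sodium-proton exchangers and Cftr at the apical membrane, ranged from 10.2 to 11.7 in VP16LXRa tumors and from 10.44 to 11.75 in VP16 tumors. These last 2 genes differed by 0.12 (SE 0.54) and -0.11 (SE 0.42), and by 0.41 and -0.07 without the 2 samples. The basolateral chloride-bicarbonate exchanger Slc4a2 differed by 0.09 (SE 0.35), or 0.17 without them, with a range of 10.32 to 11.63 in VP16LXRa tumors and 10.46 to 11.4 in VP16 tumors.

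Aquaporins are membrane water channels, and Aqp8 is the apical one of colonocytes. Aqp8 read 4.54, 12.78, 12.61 and 12.41 in VP16LXRa replicates 5 to 8, against 9.17, 13.2, 13.17 and 13 in VP16 replicates 1 to 4. Its probe was not detected in VP16LXRa replicate 5, at least 153-fold below the other 3 samples of that group, and VP16 replicate 1 lay 15.5-fold below its own group. Over all 8 samples the difference was -1.55 (SE 1.89), and its other probe gave -1.43 (SE 1.92), or -0.35 without the 2 samples that stood apart. For the brighter probe the difference without these samples was -0.52, which did not pass the threshold in limma (adjusted p = 1).

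Aqp4, a basolateral water channel, read 9.86, 11.98, 12.95 and 12.48 in VP16LXRa tumors, against 9.7, 12.86, 12.81 and 12.22 in VP16 tumors. Unlike Aqp8 it was detected in every sample, and its values in the 2 low samples lay close together. The groups differed by -0.08 (SE 0.86, 95% interval -2.04 to 1.88), or by -0.16 without those samples. Aqp11, an intracellular aquaporin, was low in the same samples, 6.08 in VP16LXRa replicate 5 against 7.99 to 8.22 in its group and 6.31 in VP16 replicate 1 against 7.78 to 8.23 in its group. Its difference was 0 (SE 0.58), and 0.08 without the 2 samples. Aqp1, the water channel of small vessels and red cells, did not follow this pattern: it read 10.53, 11.03, 10.13 and 10.5 in VP16LXRa tumors, against 10.32, 10.35, 10.86 and 9.58 in VP16 tumors. Its 3 probes gave differences of 0.27 (SE 0.3), 0.09 (SE 0.3) and 0.15 (SE 0.3), and 0.29, 0.08 and 0.14 without the 2 samples. Both samples that stood apart lay between the highest and the lowest of their groups for Aqp1.

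**Figure D3:**
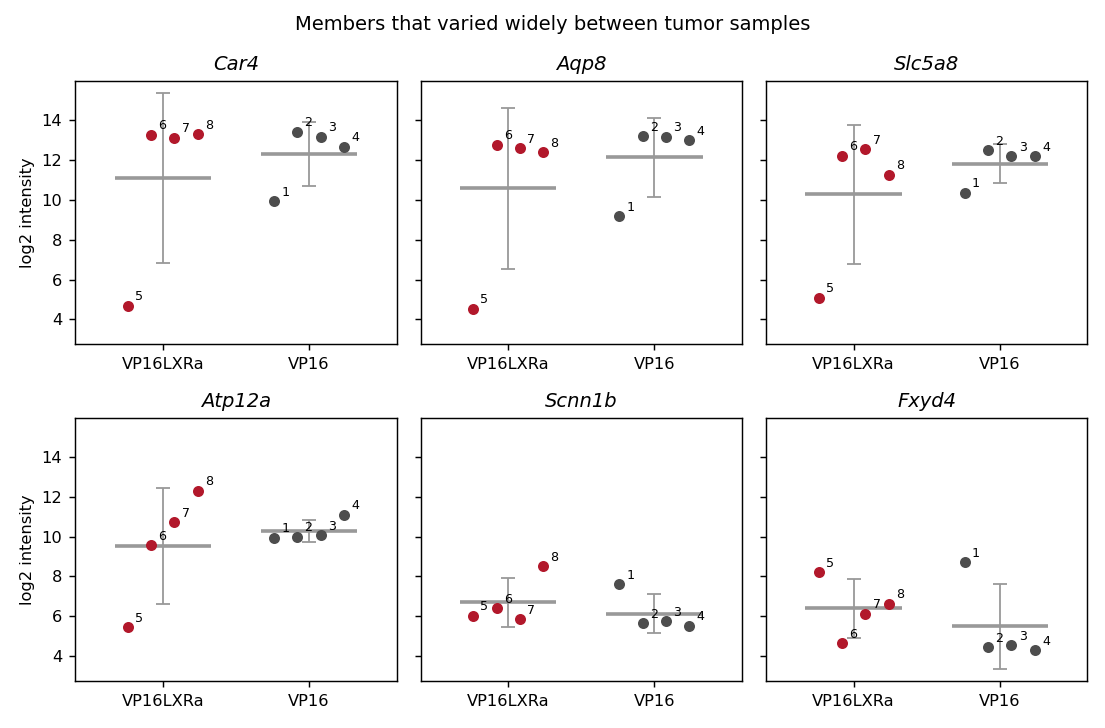
Log2 intensity of 6 members in each sample, VP16LXRa left and VP16 right, with the replicate number beside each point. Thick lines are group means and bars the SD of 4 samples. Car4, Aqp8 and Slc5a8 are lowest in VP16LXRa replicate 5 and VP16 replicate 1, Fxyd4 is highest in these samples (8.2 and 8.71), and Scnn1b is highest in VP16LXRa replicate 8 (8.52) and VP16 replicate 1 (7.62).

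The 3 subunits of the epithelial sodium channel together form the sodium entry path of the distal colon. Scnn1b and Scnn1g were high in the same samples, and Scnn1a did not follow them. Scnn1a, the alpha subunit, read 7.47, 9.79, 10.23 and 9.99 in VP16LXRa replicates 5 to 8, against 8.59, 9.76, 9.74 and 9.37 in VP16 replicates 1 to 4. It was lowest in both samples that stood apart, and it differed by 0 between groups (SE 0.6, 95% interval -1.36 to 1.37) and by 0.38 without them. Scnn1b, the beta subunit, read 6.02, 6.39, 5.85 and 8.52 in VP16LXRa tumors, against 7.62, 5.64, 5.75 and 5.52 in VP16 tumors. Here VP16LXRa replicate 8 and VP16 replicate 1 were high and the other 6 samples dim. Its difference was 0.57 (SE 0.68), and 1.29 without the 2 samples, but -0.04 without VP16LXRa replicate 8 alone. Scnn1g, the gamma subunit, was detected only in these same samples, VP16LXRa replicate 8 (7.77) and VP16 replicate 1 (6.61), and read 4.6 to 5.13 in the other VP16LXRa tumors and 4.62 to 5.34 in the other VP16 tumors. Scnn1g and Scnn1b are consecutive protein-coding genes on chromosome 7.

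Ion pumps and their small regulators differed among themselves. Atp12a, the catalytic subunit of the colonic proton-potassium pump, read 5.46, 9.58, 10.72 and 12.31 in VP16LXRa tumors, against 9.94, 9.99, 10.07 and 11.1 in VP16 tumors. VP16LXRa replicate 5 lay 42.5-fold below the other 3 VP16LXRa samples, whereas VP16 replicate 1 lay only 1.37-fold below its group, and VP16LXRa replicate 8 was the highest of all. The difference was -0.76 (SE 1.26, 95% interval -3.63 to 2.11), and 0.48 without the 2 samples that stood apart. Fxyd4, a regulator of the sodium pump in distal colon and kidney, read 8.2, 4.63, 6.12 and 6.62 in VP16LXRa tumors, against 8.71, 4.43, 4.55 and 4.29 in VP16 tumors. It was highest in the samples where most members were lowest, above detection in 3 of the 4 VP16LXRa samples and 1 of the 4 VP16 samples, and the groups overlapped. Its difference was 0.9 (SE 1.1). Without those samples no VP16 sample had a detected signal. Of the remaining VP16LXRa samples, replicates 7 and 8 had one and replicate 6 (4.63) had none. The difference there was 1.37 (limma adjusted p = 1), but it rests partly on undetected signals in both groups, so no fold is given. Fxyd3, a related regulator, had the same 2 samples on top, 11.09 in VP16LXRa replicate 5 with 10.31 to 10.77 in its group, and 11.45 in VP16 replicate 1 with 10.25 to 10.46 in its group. The pump's beta subunit gene Atp1b1 was bright throughout, 13.38 to 13.95 in VP16LXRa tumors and 13.39 to 14.14 in VP16 tumors. Fxyd3 and Atp1b1 differed by 0.02 (SE 0.3) and -0.03 (SE 0.21), and by 0.14 and -0.03 without the 2 samples.

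Of the genes of chloride secretion, the apical channel Cftr read 8.05, 10.06, 10.21 and 10.17 in VP16LXRa replicates 5 to 8, against 8.6, 10.47, 10.06 and 10.42 in VP16 replicates 1 to 4. It was low in both samples that stood apart, 4.28-fold below the other VP16LXRa samples and 3.29-fold below the other VP16 samples, and differed by -0.27 (SE 0.59), or -0.17 without them. Slc12a2, the sodium-potassium-chloride cotransporter that loads cells with chloride, read 13.11, 12.59, 12.76 and 12.73 in VP16LXRa tumors, against 12.77, 12.59, 12.65 and 12.46 in VP16 tumors. In contrast to Cftr it was highest in the sample of each group that stood apart, though the 8 values spanned only 0.65. Slc12a2 had the smallest p of all members, with a difference of 0.18 (SE 0.16, 95% interval -0.19 to 0.55), and 0.13 without those samples. Its second kept probe gave -0.02 (SE 0.18), the opposite sign, and -0.05 without those samples. Kcnn4, a calcium-activated potassium channel, was steady at 7.75 to 8.18 in VP16LXRa tumors and 7.58 to 8.12 in VP16 tumors, with a difference of 0.11 (SE 0.2), or -0.06 without the 2 samples. Kcne3, the accessory subunit of the channel Kcnq1, was detected in 2 of 4 samples of each group and differed by -0.24 (SE 0.36), or -0.53 without them.

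Among the solute carriers, Slc5a8, which takes up butyrate and other short-chain fatty acids with sodium, read 5.09, 12.22, 12.54 and 11.27 in VP16LXRa tumors, against 10.36, 12.5, 12.19 and 12.19 in VP16 tumors. It was not detected in VP16LXRa replicate 5, at least 102-fold below the other 3 VP16LXRa samples, and lay 3.82-fold lower in VP16 replicate 1 than in the other 3 VP16 samples. The difference was -1.53 (SE 1.53, 95% interval -5.03 to 1.96), and -0.28 without these samples. These values rest on 1 probe, as the other Slc5a8 probe was detected on no array (4.35 to 4.92). Trpm6, the channel through which magnesium is absorbed, read 6.06, 9.64, 9.6 and 8.92 in VP16LXRa tumors, against 7.7, 9.71, 9.44 and 9.81 in VP16 tumors. All 3 of its kept probes were lowest in VP16LXRa replicate 5 and VP16 replicate 1, with differences of -0.61 (SE 0.83), -0.74 (SE 0.75) and -0.15 (SE 0.55), and -0.27, -0.4 and 0 without the 2 samples. The phosphate carrier Slc20a1 was lowest in the same samples, 6 in VP16LXRa replicate 5 and 6.7 in VP16 replicate 1, and differed by 0.14 (SE 0.47), or 0.42 without them.

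Leaving out VP16LXRa replicate 5 alone made 22 of the 25 differences positive, with a median of 0.29. Leaving out VP16 replicate 1 alone made 19 negative, with a median of -0.43. Without both, 12 were positive and 13 negative, and the median was -0.03. Again 0 of 25 passed limma's adjusted threshold there. Aqp8 and Fxyd4 had an unadjusted p under 0.05 in limma, against 3.24% of all probes. Over all kept probes the median difference was 0 in each of these 3 settings. Among 3 samples a group, Aqp8 was lower in every VP16LXRa sample than in any VP16 sample (its second probe overlapped), and Slc26a2, Scnn1a, Scnn1b and Fxyd4 were higher in every VP16LXRa sample. These are 5 of 25 members, against 8.03% of all kept probes whose groups did not overlap in these 6 samples, 4.08% with VP16LXRa above and 3.96% with VP16LXRa below. The gaps were narrow: the lowest VP16LXRa and highest VP16 values were 9.79 and 9.76 for Scnn1a, 6.66 and 6.6 for Slc26a2. They were 5.85 and 5.75 for Scnn1b, near the lowest detected signals of the arrays (5.24 to 5.47). For Fxyd4 the separation rests on signals below detection, 4.63 in VP16LXRa replicate 6 against 4.29 to 4.55 in the VP16 samples. Its second probe, which was not kept, overlapped, with 4.41 in VP16LXRa replicate 6 and 4.43 to 4.46 in these VP16 samples. Fxyd4 was also under an unadjusted p of 0.05 without VP16 replicate 1 alone (limma adjusted p = 0.971), again against VP16 samples without a detected signal, and it was kept in the test only through detection on 3 VP16LXRa arrays and the VP16 array left out here. Car4 gave the largest swing besides Aqp8, 0.94 without VP16LXRa replicate 5 and -1.99 without VP16 replicate 1, and Aqp8 gave 0.47 and -2.54. In all 3 settings Slc12a2, Aqp1, Scnn1b and Fxyd4 had positive differences, at their brightest probes, and Car13 and Kcne3 negative ones. For Kcne3 these rest partly on signals below detection, among them 5.2 and 4.57 in VP16LXRa replicates 6 and 8 and 5.24 in VP16 replicate 2. Without VP16LXRa replicate 8 alone the Kcne3 difference was 0.01.

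**Figure D4:**
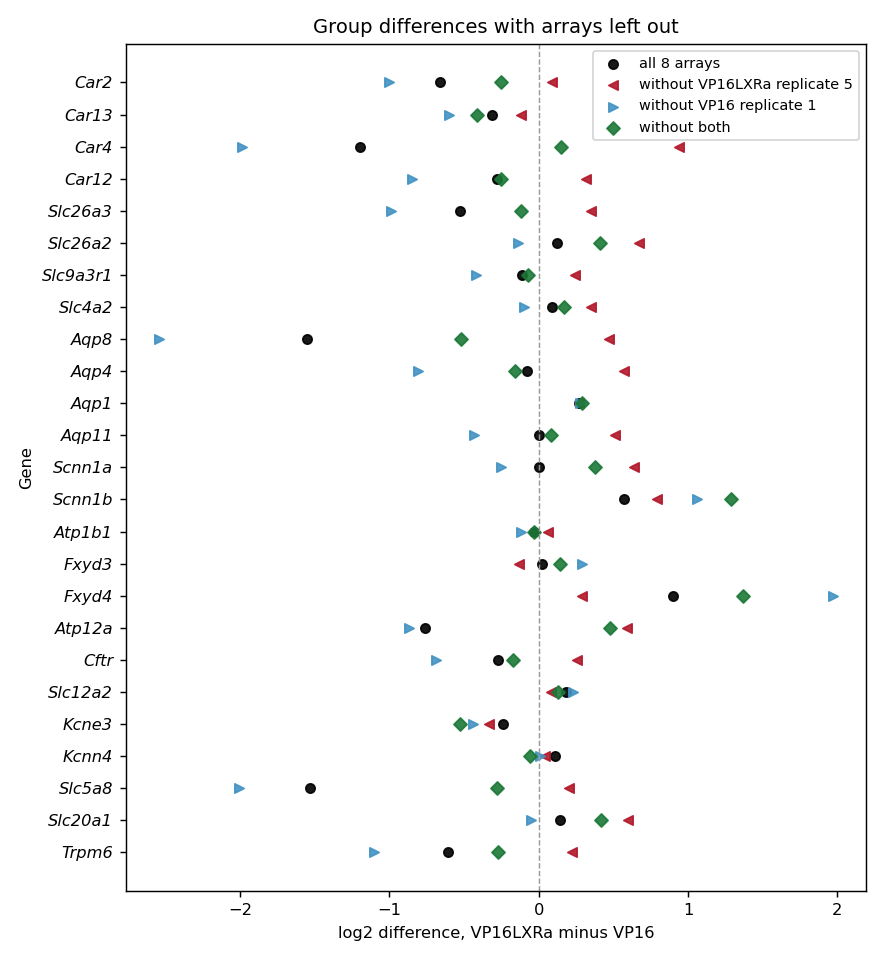
Log2 difference, VP16LXRa minus VP16, of the 25 kept members with all 8 arrays (circles), without VP16LXRa replicate 5 (left-pointing triangles), without VP16 replicate 1 (right-pointing triangles) and without both (diamonds). For most members the triangles lie on opposite sides of 0, with 22 positive differences without VP16LXRa replicate 5 and 19 negative without VP16 replicate 1. The median over all kept probes was 0 in both settings.

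Other genes of epithelial transport were counted in the same fit. Of 109 names on a list without members, 94 were on the array and 45 were kept. With limma 0 of 45 passed in either direction, against 0.00842% of all kept probes, and 0 had an unadjusted p under 0.05, against 1.68%. Differences were positive for 16 and negative for 29, with a median of -0.03, against 50.4% positive and a median of 0 over all kept probes. Without VP16LXRa replicate 5 alone 32 of 45 were positive, and without both samples that stood apart 27 were. The median over all kept probes was 0 in both settings. Among the genes with the smallest p were the phosphate carrier Slc34a2 (0.69, SE 0.47, and 0.44 without both samples), the monocarboxylate transporter family gene Slc16a6 (0.35, SE 0.26, and 0.39), the potassium-chloride cotransporter Slc12a7 (-0.22, SE 0.17, and -0.38), the chloride channel accessory gene Clca6 (-2.35, SE 1.78, and -0.54) and Vipr1, a receptor for vasoactive intestinal peptide (-0.33, SE 0.29, and -0.44). Clca6 read 4.31, 12.61, 12.72 and 12.74 in VP16LXRa tumors, against 12.1, 13.15, 13.13 and 13.41 in VP16 tumors. Its probe was not detected in VP16LXRa replicate 5 and was lowest in VP16 replicate 1 within that group, and without VP16LXRa replicate 5 alone its difference was -0.25. Clca3, a goblet cell gene of the same family, varied most, with 4.72, 15.33, 15.47 and 15.47 in VP16LXRa tumors and 13.27, 15.47, 15.37 and 14.43 in VP16 tumors. Slc12a8 and Clic5 were likewise lowest in VP16LXRa replicate 5 (7.34 and 4.95) and VP16 replicate 1 (9.27 and 5.7). Fxyd6, a further pump regulator, was instead lowest in VP16 replicate 4 (7.41), against 10.17 to 11.84 in VP16LXRa tumors and 11.11 to 11.92 in the other VP16 tumors. Hsd11b2, which protects the mineralocorticoid receptor from glucocorticoids, ranged from 6.17 in VP16LXRa replicate 5 to 10.95 in VP16LXRa replicate 8, with 9.08 to 9.76 in VP16 tumors.

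Of the marker lists, which hold no members, those of colonocytes, goblet cells and smooth muscle were low in the samples where most members were low. Smooth muscle markers were low in VP16 replicate 4 as well, and the other lists went differently. For each list the mean deviation of its kept genes from their means over 8 arrays was taken. Colonocyte markers (21 kept of 28 names) stood at -2.32 in VP16LXRa replicate 5 and 0.27 to 0.74 in the other VP16LXRa samples, and at -0.66 in VP16 replicate 1 and 0.39 to 0.64 in the other VP16 samples. Goblet cell markers (6 of 10) stood at -3.64 and 0.92 to 1.15 in VP16LXRa tumors, and at -1.42 and 0.09 to 0.97 in VP16 tumors, in the same order of samples. Wnt target genes (9 of 16) went the other way, at 1.77 in VP16LXRa replicate 5 and 1.44 in VP16 replicate 1 and between -0.75 and -0.03 elsewhere. These 9 genes include Axin2, so their mean is not separate from the Axin2 values given above for the 2 samples that stood apart. Of the 21 colonocyte markers, 19 had the lowest value of their group in VP16LXRa replicate 5 and 17 in VP16 replicate 1, against 36.4% and 33.2% of all kept probes. The list also holds general epithelial genes, picked here after their values were seen: Krt8, a keratin, was bright in every tumor, 14.18 to 14.67 in VP16LXRa and 14.47 to 15.01 in VP16, and so was Lgals4, 14.24 to 15.04 and 14.79 to 14.92. Both were still the lowest of their group in VP16LXRa replicate 5, Krt8 at 14.18 against 14.49 to 14.67 and Lgals4 at 14.24 against 14.89 to 15.04. In VP16 replicate 1 Krt8 (14.47) was again the lowest of its group, and Lgals4 (14.82) was not. Krt18, a further keratin of the list, was instead the highest of its group in both samples, at 11.93 and 12.3. Krt20, from the same list, a keratin of differentiated surface cells, read 5.36 in VP16LXRa replicate 5 and 11.23 in VP16 replicate 1, against 12.48 to 13.29 and 12.66 to 13.59 in the rest of their groups. Smooth muscle markers (8 of 10) were low in VP16LXRa replicate 5 (-2.2) and VP16 replicate 1 (-0.94), but also in VP16 replicate 4 (-1.76), where the members' median deviation was 0.47. Fibroblast markers (10 of 10) stood at 0.92 and 0.99 in the 2 samples that stood apart and endothelial markers (8 of 10) at 0.52 and 0.47, above the other samples of each list. Macrophage markers (12 of 12) were 1.21 and 0.29 there, with -0.68 to 0.35 elsewhere. Of the neutrophil and erythrocyte lists only 2 genes each were kept. The part of these lists in the members' values was not tested.

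**Figure D5:**
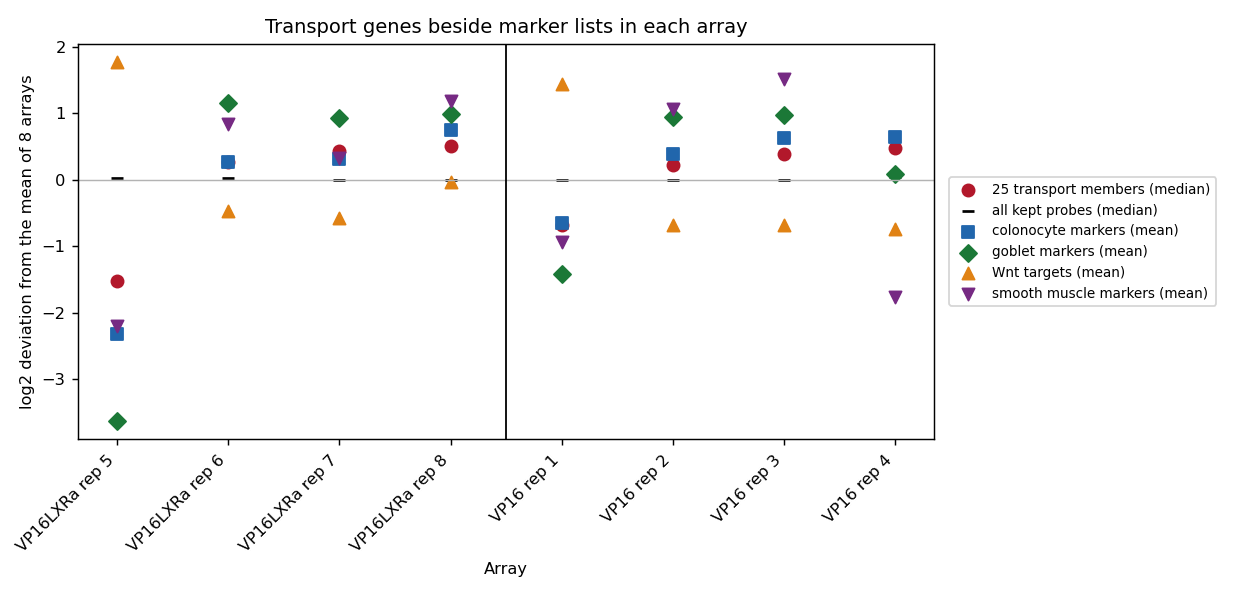
For each array, the median log2 deviation of the 25 kept members and of all kept probes (held near 0 by quantile normalization), beside the mean deviation of 4 marker lists, each gene centred on its mean over 8 arrays, VP16LXRa left of the line and VP16 right. The members and the colonocyte and goblet markers lie below 0 in VP16LXRa replicate 5 (-1.53, -2.32 and -3.64) and VP16 replicate 1 (-0.69, -0.66 and -1.42), where Wnt targets, Axin2 among them, lie above it. Smooth muscle markers lie below 0 in these samples too (-2.2 and -0.94), and also in VP16 replicate 4 (-1.76).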

How the data were processed

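Total RNA of 8 tumor samples was hybridised to 1-colour Illumina BeadChips after biotin labelling with an Ambion TotalPrep kit, per the labels' protocols. Per the file headers, the deposited table gives every probe a bead summary intensity on each array, not normalized, with its detection p-value; GenomeStudio is named in the submitters' processing notes, without a version. The authors' processed intensity values, a second deposited table, served as an alternative. No source used here names the genome build of the probes.

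The neqc function (limma 3.58.1, R 4.3.3) applied normexp background correction based on detection p-values, an offset of 16, quantile normalization and log2, and the offset shrinks folds of dim probes. Groups were compared over 11875 kept probes (46.2%) by a two-sided moderated test (lmFit, eBayes), adjusted by Benjamini-Hochberg, at a threshold of 0.05. Raw median intensity was 126 to 146 per array, no arrays held identical values, and slides and scan dates, absent from the files used, were not examined as batches. Per-array values are given for the 12 members with the largest SD, the 6 with the smallest p and 7 kept genes fixed by name, 15 in all, and the same rule with 6 and 6 named other transport genes, of which 1 is not reported here. Krt8, Krt18, Lgals4, Krt20 and Axin2 were chosen after their values were seen. Members and lists were chosen with earlier results of these data known. The fit was tested on simulated data.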

Additional observations from a re-analysis of the deposited data

Results flagged for a closer look

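A sample far from the other 3 of its group, by Dixon's ratio at its 95% critical value, was found in 14 of the 50 sets of 4 values (25 members in each group). Chance gives about 1 in 20, and over all kept probes the share was 9.64% in VP16LXRa and 7.2% in VP16. In VP16LXRa replicate 5 this held, on the low side, for Car4 (4.68), Slc26a3 (4.35), Slc26a2 (4.52), Slc9a3r1 (10.2), Aqp8 (4.54), Aqp11 (6.08), Scnn1a (7.47), Cftr (8.05) and Slc5a8 (5.09). In VP16 replicate 1 it held on the low side for Aqp8 (9.17) and Slc5a8 (10.36) and on the high side for Scnn1b (7.62) and Fxyd4 (8.71). Atp12a was high in VP16 replicate 4 (11.1).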

How the results depend on the processing

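The count of members past the adjusted threshold was 0 under all 11 processing alternatives, with each array left out, and without VP16LXRa replicate 5 and VP16 replicate 1 (added after seeing the data), and so was that of the other transport genes. The median member difference ran from -0.09 to 0.01 over the processing alternatives and from -0.43 to 0.29 with 1 array left out, and that of the other transport genes from -0.08 to 0.03 and from -0.15 to 0.18. Signs of single members changed often, in up to 4 of 25 by processing (median scaling and array weights) and in up to 13 with 1 array left out (VP16LXRa replicate 5), none at an unadjusted p under 0.05 before or after. Array weights moved Atp12a to 0.64. Scnn1b turned to -0.04 without VP16LXRa replicate 8. Median scaling shifted the median of all probes to -0.04. Arrays were left out without normalizing or filtering anew. No paired analysis was possible because the groups share no replicate numbers.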
